A study of Mus musculus with 97 samples.

Results

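The RNA of whole cerebellum was set against the RNA of whole striatum in adult mice, using 2 libraries per region. These 4 libraries were taken by their labels, which name them cerebellum or striatum tissue RNA, replicates 1 and 2. They are 4 of the 28 libraries in the deposited table and 4 of the 97 samples of the series, whose subject is how microglia differ between brain regions. All 4 came from C57BL/6 mice of 9 months with the genotype Cx3cr1CreErt2/+(Litt);Eef1a1LSL.eGFPL10a/+;Eedfl/+, treated with tamoxifen at 4 to 6 weeks of age. Every mouse therefore carried 1 floxed Eed allele, an inducible Cre under the microglial Cx3cr1 promoter and a ribosomal protein tagged with green fluorescent protein that the Cre switches on. The extraction text of all 4 labels says that the tissue RNA is what stayed unbound when the tagged ribosomes were captured by translating ribosome affinity purification (TRAP). The library names differ, however: both replicate 1 libraries carry IN and both replicate 2 libraries carry UB, and no source used here explains these names. Whether both numbers hold the same fraction is therefore not known, and the replicate number cannot be told apart from the kind of library that the names mark. The labels also call this RNA microglial. The values went against that: Cx3cr1, the fractalkine receptor of microglia, stood at 1.66 and 1.06 RPKM in cerebellum and 6.33 and 3.72 in striatum, and the neuronal vesicle fusion gene Snap25 at 2147 and 2890 RPKM in cerebellum and 1023 and 1224 in striatum. No source used here says how many animals a library holds or whether the libraries came from separate animals, and a p-value here speaks only to the scatter among these 4 libraries, which may be technical.

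The cerebellum and the striatum are built from different neurons. The cerebellar cortex consists of densely packed glutamatergic granule cells, of inhibitory Purkinje cells that form its only output, and of interneurons and Bergmann glia. The striatum is made mostly of inhibitory projection neurons that receive dopamine and divide into a direct pathway, with the receptor Drd1, and an indirect pathway, with Drd2, among which cholinergic and other interneurons are scattered. In bulk tissue a lower value can mean fewer cells of a type or less RNA per cell, and these cannot be told apart here.

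Levels are in RPKM, a read count scaled to gene length and to the size of the library, so they can be compared between genes of different length. Each pair of values below is replicate 1 followed by replicate 2. Differences are cerebellum minus striatum on the log2(RPKM + 1) scale, where 1 is a doubling, given with the standard error of the limma fit (n = 2 per region). This scale understates the change of genes with low values. A gene was called where its adjusted p was under 0.05. Only genes that reached 1 RPKM in at least 2 of the 4 libraries were tested. A gene could pass this filter through 1 region alone, which tilts the directions among the tested members of a list.

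Regional differences reached across much of the transcriptome. Of 12954 genes tested, 3771 (29.1%) were called by limma: 1786 (13.8%) stood higher in cerebellum and 1985 (15.3%) stood lower. The difference was at least 1 for 2149 of them, 926 higher and 1223 lower, and at least 3 for 85 higher and 145 lower. The libraries of the regions did not overlap for 8571 genes (66.2%), which include all 3771 called. Over all genes tested the median difference was 0.0045. Libraries of the same region correlated across genes with r of 0.972 and 0.973 and libraries of different regions with 0.816 to 0.849, where genes are not independent replicates. The read totals recovered from the values were 51.6 and 59.5 M for cerebellum and 36.9 and 21.5 M for striatum, and 12008 to 12586 genes reached 1 RPKM. The count of calls was 2803 without cerebellum replicate 1, 2466 without cerebellum replicate 2, 2385 without striatum replicate 1 and 2171 without striatum replicate 2. With the replicate number as a block in the fit, which takes out a shift that both regions share, 6071 genes were called, including all 3771, and 52 of the 124 named genes that did not pass without the block passed with it.

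**Figure D1:**
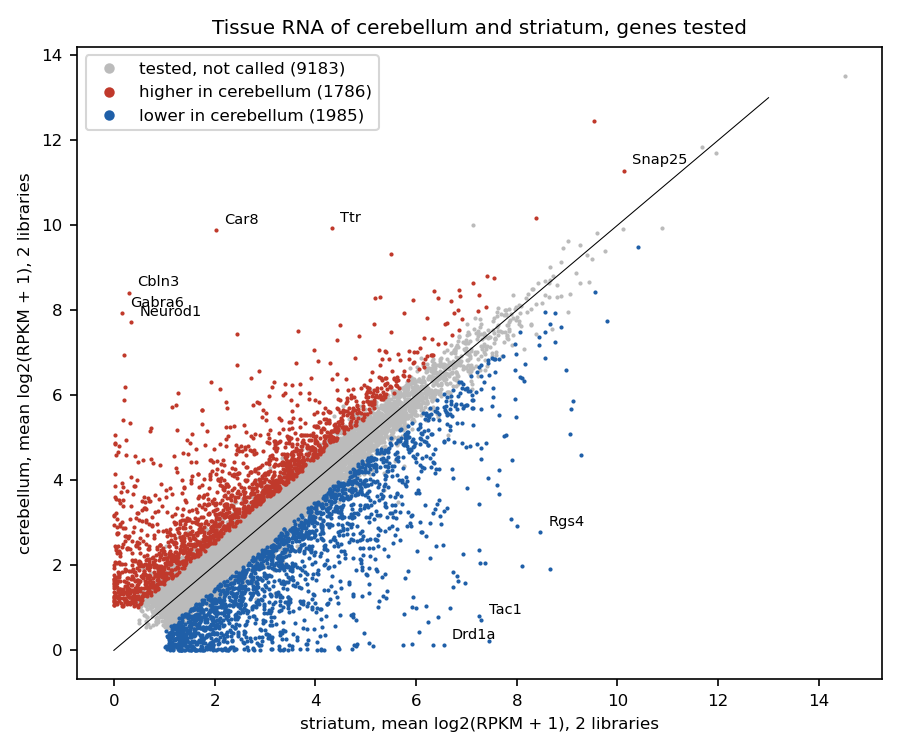
Each point is 1 of 12954 genes tested, with its mean log2(RPKM + 1) over 2 striatum libraries on the x axis and over 2 cerebellum libraries on the y axis, and the line marks equal values. Red points are the 1786 genes called higher and blue points the 1985 called lower in cerebellum, and Cbln3, Gabra6 and Neurod1 lie near 0 in striatum while Tac1 and Drd1a lie low in cerebellum.

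Genes low in 1 region were often higher there in replicate 1 than in replicate 2. How often this held over all genes tested was not counted, so the order is not shown to be particular to these genes. RPKM summed over all genes was also higher in replicate 1, at 294265 and 245334 in cerebellum and 306452 and 261114 in striatum. Among the 145 genes lower in cerebellum by at least 3, 112 were higher in replicate 1 than in replicate 2 of cerebellum, with medians of 1.41 and 0.942 RPKM. Taken gene by gene as a share of the striatal mean, the median was 3.61% in replicate 1 and 2.33% in replicate 2. The mirror held in striatum: of the 85 genes higher in cerebellum by at least 3, 56 were higher in striatum replicate 1 than in striatum replicate 2, with median shares of the cerebellar mean of 2.68% and 1.78%. An example in cerebellum is Nrgn, neurogranin, a calmodulin-binding protein of forebrain dendrites, with 9.92 and 0.429 RPKM in cerebellum and 299 and 251 in striatum. Both replicate 1 libraries also had more haemoglobin RNA than the replicate 2 libraries: Hbb-b1 stood at 25.9 and 6.80 RPKM in cerebellum and 22.0 and 6.96 in striatum. The part of these shifts in the results below was not tested.

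The 15 largest in each direction among named genes included Cbln3, Car8, Gabra6, Neurod1, Ppp1r17, Bcl2l15, Pcp2, Ttr, Gng13, Iltifb, Zic1, Cnpy1, Fat2, Calb2 and Barhl2 on the cerebellar side. On the striatal side they included Ctxn1, Tac1, Drd2, Drd1a, Ddn, Nrgn, Adora2a, Rgs4, Camkv, Kcnip2, Bcl11b, Cd4, Rgs9 and Neto1. All 30 kept their calls in all 13 alternative settings. Cbln3 (ENSMUSG00000040380), a secreted partner of the synapse organizer Cbln1, had 281 and 412 RPKM in cerebellum and 0.132 and 0.345 in striatum. The difference of 8.11 ± 0.22 (adjusted p = 0.000140) was the largest in the cerebellar direction. On the striatal side Ctxn1 (ENSMUSG00000048644), a cortexin of neuronal membranes, had 428 and 378 RPKM in striatum and 4.83 and 1.41 in cerebellum and a difference of -6.75 ± 0.41 (adjusted p = 0.000478).

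**Figure D2:**
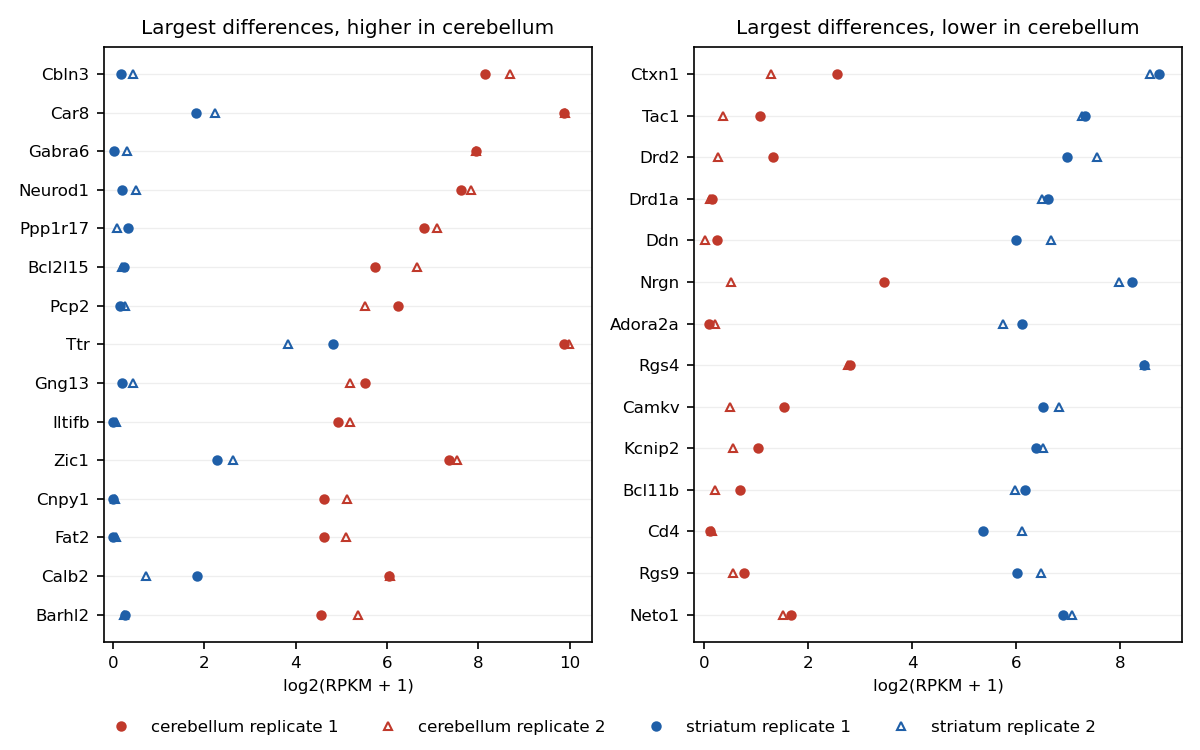
The x axis is log2(RPKM + 1) and each row is a gene, with circles for replicate 1, triangles for replicate 2, red for cerebellum and blue for striatum. In every row shown the red and blue symbols are apart, and among the genes lower in cerebellum Nrgn has the widest gap between the cerebellar replicates, at 9.92 and 0.429 RPKM.

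A few of these genes are not ones that the cell type lists hold. Bcl2l15, of the Bcl2 family of apoptosis regulators, had 52.0 and 99.3 RPKM in the cerebellar libraries against 0.186 and 0.149 in the striatal ones. Cnpy1, of the canopy family of fibroblast growth factor signalling regulators, had 23.4 and 34.1 RPKM in the cerebellar libraries against 0.00464 and 0.0318 in the striatal ones, a difference of 4.84 ± 0.22. Cd4, known as the coreceptor of helper T cells, stood at 39.9 and 68.1 RPKM in striatum and 0.0769 and 0.108 in cerebellum. The T cell receptor gene Cd3e was under 0.4 RPKM in all 4 libraries (0.202 and 0.0234 RPKM in cerebellum and 0.378 and 0.356 in striatum, chosen after its values were seen). Iltifb had 29.2 and 35.7 RPKM in cerebellum and 0 and 0.0419 in striatum, and its near-identical copy Il22 had 7.89 and 8.09 RPKM in cerebellum and was listed at 0 in both striatal libraries. The counting could have divided reads between these copies, so their separate values are uncertain.

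To show what lies before the start of genes that move apart so far, the 250 bases upstream of the annotated start are given for a pair of granule cell genes, Gabra6 and Cbln3, and a pair of striatal genes, Tac1 and Drd2. They are from RefSeq, build GRCm38.p6, at chr11:42321073-42321322 and chr14:55884257-55884506 (minus strand) and chr6:7554811-7555060 and chr9:49340153-49340402 (plus strand). Each is printed 5′ to 3′ on the gene's strand. Capitals mark a match on either strand to any of 6 short motifs. TGACG is the core of the response element that cyclic AMP signalling acts through. The letters TTGGC are the core that nuclear factor I proteins recognize. An E-box of the form CAGATG is known from neurogenic factors of the Neurod family. Homeodomain proteins recognize sites around the core TAATTA. The TATA box was searched as TATAAA and the GC box of housekeeping promoters as GGGCGG.
Gabra6: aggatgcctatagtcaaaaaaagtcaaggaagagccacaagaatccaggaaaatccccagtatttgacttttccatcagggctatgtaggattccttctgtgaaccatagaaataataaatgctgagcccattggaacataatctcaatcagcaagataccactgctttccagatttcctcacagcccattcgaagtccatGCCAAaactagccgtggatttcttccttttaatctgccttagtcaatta
Cbln3: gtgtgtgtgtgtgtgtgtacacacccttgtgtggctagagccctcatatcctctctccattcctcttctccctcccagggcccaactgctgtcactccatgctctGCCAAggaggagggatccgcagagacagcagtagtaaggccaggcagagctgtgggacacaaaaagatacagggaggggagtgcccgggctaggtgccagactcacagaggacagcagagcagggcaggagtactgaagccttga
Tac1: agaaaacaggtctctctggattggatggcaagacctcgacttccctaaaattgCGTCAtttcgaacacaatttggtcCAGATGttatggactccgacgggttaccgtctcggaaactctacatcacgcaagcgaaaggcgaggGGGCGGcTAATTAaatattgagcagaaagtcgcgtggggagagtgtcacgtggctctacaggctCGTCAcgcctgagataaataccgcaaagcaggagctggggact
Drd2: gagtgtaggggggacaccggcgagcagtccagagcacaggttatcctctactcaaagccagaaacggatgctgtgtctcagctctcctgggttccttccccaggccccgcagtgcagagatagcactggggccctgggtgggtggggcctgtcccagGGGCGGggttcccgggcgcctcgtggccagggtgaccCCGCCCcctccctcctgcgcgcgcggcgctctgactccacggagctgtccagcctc
TTGGC was found 49 bases before the start of Gabra6 and 145 before that of Cbln3, and GGGCGG at 93 and 56 bases before that of Drd2. The Tac1 window held 5 matches to 4 of the motifs. These are common letters: TTGGC was in 41.5% of all 32851 such windows, GGGCGG in 32.7%, TGACG in 17.8%, CAGATG in 14.4%, TATAAA in 12.4% and TAATTA in 4.84%. Windows were found for 12 of the 16 granule cell genes that were higher, 17 windows in all. TTGGC was in 8 of those 17 and in 9 of the 30 windows of the shared striatal projection neuron genes that were lower, with windows for 14 genes. A match is only a match of letters and is no evidence of binding.

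Granule cell genes were higher in cerebellum almost throughout the list, by a median of 3.90. Of 18 tested, 16 were called higher and none lower. Gabra6, the GABA-A receptor subunit that defines mature granule cells, had 245 and 244 RPKM in cerebellum and 0.0109 and 0.243 in striatum. Its cerebellar libraries were nearly equal and far above both striatal ones, a difference of 7.78 ± 0.16 (adjusted p = 0.000113). Neurod1, a transcription factor of granule cell differentiation, had 195 and 228 RPKM in the cerebellar libraries against 0.139 and 0.409 in the striatal ones (7.38 ± 0.18). The zinc finger genes Zic1 and Zic2 were higher by 4.99 ± 0.17 and 4.15 ± 0.23, the giant cadherin Fat2 by 4.83 ± 0.21 and the homeobox gene Barhl2 by 4.70 ± 0.28. Calb2, calretinin, also found in unipolar brush cells, had 64.4 and 66.3 RPKM in cerebellum and 2.59 and 0.641 in striatum. Cadps2, which primes secretory vesicles, and Mab21l1 were higher by 3.91 and 3.88, and Cbln1, the bridge between parallel fibres and Purkinje cells, by 3.35 ± 0.17. At the low end, the vesicular glutamate transporter Slc17a7 had 33.0 and 30.2 RPKM in cerebellum and 9.33 and 11.0 in striatum and the NMDA receptor subunit Grin2c 6.34 and 8.25 and 1.19 and 1.85 RPKM in the same order, and both were called higher. Reln, the secreted guidance protein, had 7.94 and 8.31 RPKM in cerebellum and 5.53 and 5.92 in striatum and did not pass (0.44 ± 0.14, adjusted p = 0.0736). Gabrd, an extrasynaptic GABA-A subunit shared by granule and striatal neurons, had 13.3 and 16.2 RPKM in cerebellum and 11.3 and 19.8 in striatum, where the regions overlapped.

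Purkinje cell genes had 22 of 23 tested higher and none lower, with a median of 2.90. Car8, a carbonic anhydrase relative that binds the inositol trisphosphate receptor, was the most abundant gene of the list, at 942 and 952 RPKM in cerebellum and 2.50 and 3.70 in striatum (7.87 ± 0.19). Ppp1r17, a phosphatase inhibitor known from Purkinje cells, had 111 and 136 RPKM in the cerebellar libraries against 0.250 and 0.0535 in the striatal ones. Pcp2, the Purkinje cell protein that modulates G proteins, had 74.3 and 44.9 RPKM in cerebellum and 0.104 and 0.204 in striatum, a difference of 5.67 ± 0.26 (adjusted p = 0.000272). In each of these genes the lower cerebellar library was many times above the higher striatal one. The homeobox genes Lhx1 and En2 were higher by 4.69 ± 0.15 and 3.35 ± 0.19, the glutamate transporter Slc1a6 by 3.75 ± 0.20 and the exchange factor Arhgef33 by 4.34 ± 0.15. The exception was Doc2b, a calcium sensor of vesicle release, with 25.2 and 36.7 RPKM in cerebellum and 27.5 and 38.4 in striatum and overlapping regions.

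The phospholipase and calcium store cascade, by which parallel fibres raise calcium in Purkinje dendrites, was higher at most of its steps, with 11 of 19 genes called higher and 2 lower (median 1.18). The phospholipase Plcb4 had 86.4 and 135 RPKM in cerebellum and 10.3 and 12.4 in striatum (3.14 ± 0.24) and the scaffold Homer3 11.0 and 8.18 RPKM in cerebellum and 0.410 and 0.149 in striatum. The inositol phosphatase Inpp5a was higher by 2.39 ± 0.15 and the receptor channel Itpr1 by 1.18 ± 0.24. The calcium channels Cacna1g and Cacna1a were higher by 2.98 ± 0.19 and 1.43 ± 0.17. The 2 genes lower in cerebellum were another phospholipase, Plcb1, at 55.2 and 77.4 RPKM in striatum and 10.9 and 13.5 in cerebellum, and the ryanodine receptor Ryr3, at 9.68 and 16.1 RPKM in striatum and 1.33 and 1.11 in cerebellum. The G protein Gnaq had 79.0 and 85.8 RPKM in cerebellum and 62.7 and 59.7 in striatum and did not pass (0.42 ± 0.14, adjusted p = 0.0788), and the calcium pump gene Atp2b2, at 84.0 and 90.3 RPKM in cerebellum and 86.7 and 97.6 in striatum, overlapped between the regions. Itpr1 did not pass without cerebellum replicate 2 (adjusted p = 0.0554), striatum replicate 1 (0.0995) or striatum replicate 2 (0.0591).

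Genes of other cerebellar neurons were higher for 8 of 12 tested, with 1 lower (median 1.75). Tfap2b, a transcription factor of inhibitory interneurons, had 26.0 and 22.8 RPKM in cerebellum and 0.0382 and 0.0874 in striatum (4.58 ± 0.16). The glycine transporter Slc6a5 of Golgi cells had 12.1 and 9.46 RPKM in cerebellum and 0.0576 and 0 in striatum, and Eomes, a marker of unipolar brush cells, 5.86 and 3.45 RPKM in cerebellum and 0.0392 and 0 in striatum. Pax2 of young interneurons and the receptor kinase Kit of molecular layer interneurons were higher by 2.00 ± 0.22 and 2.23 ± 0.27. In all 12 genes cerebellum replicate 1 was above replicate 2, as for Kit with 41.0 and 23.4 RPKM. The gene called lower was the secreted synaptic protein Nxph1 (-0.54 ± 0.15, adjusted p = 0.0469), which lost its call without any of the 4 libraries (adjusted p = 0.0877 to 0.224).

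Genes of Bergmann glia and cerebellar astrocytes had 8 of 11 higher and 1 lower (median 1.51). Gdf10, a growth factor of Bergmann glia, had 7.04 and 15.4 RPKM in cerebellum and 0.334 and 1.01 in striatum (2.81 ± 0.39), Hopx 28.6 and 25.9 RPKM in cerebellum and 4.71 and 2.79 in striatum, and the protease inhibitor A2m 7.72 and 9.20 and 0.750 and 0.0996. The AMPA receptor subunit Gria4 was higher by 1.79 ± 0.21. Slc1a3, the glutamate transporter of Bergmann glia, had 31.8 and 63.5 RPKM in cerebellum and 17.6 and 22.3 in striatum and did not pass (1.14 ± 0.34, adjusted p = 0.0572). The gene called lower was the AMPA receptor subunit Gria1, a call lost without either striatal library, as given with the glutamate receptors.

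**Figure D3:**
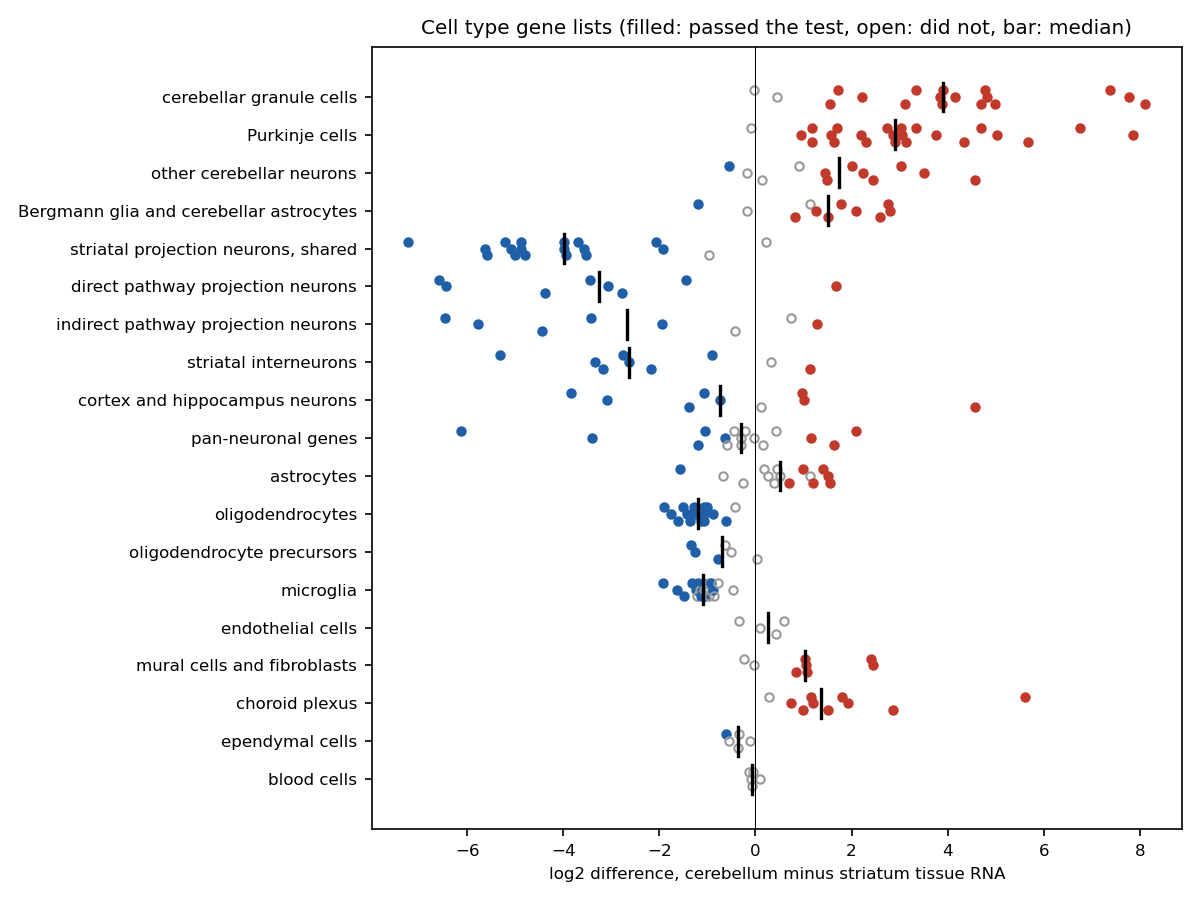
The x axis is the log2 difference, cerebellum minus striatum, and each row is a list of cell type genes, with 1 point per gene tested, filled where it was called (red higher, blue lower) and open where it was not, and a bar at the list's median. Granule and Purkinje cell genes lie to the right with medians of 3.90 and 2.90, shared striatal projection neuron genes to the left with -3.98, and oligodendrocyte and microglia genes sit close to -1.

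Genes shared by striatal projection neurons showed the reverse, with 17 of 19 tested lower in cerebellum, none higher and a median of -3.98. Ppp1r1b, the phosphatase inhibitor DARPP-32 through which dopamine acts, was the most abundant of them, at 583 and 484 RPKM in striatum and 43.0 and 25.0 in cerebellum (-3.97 ± 0.28, adjusted p = 0.000659). The phosphodiesterases Pde10a and Pde1b had 181 and 223 and 148 and 157 RPKM in striatum and 13.8 and 9.97 and 3.47 and 2.90 in cerebellum. The regions stood far apart in all 3. Rgs9, which speeds G protein deactivation after dopamine receptors, had 63.6 and 87.2 RPKM in striatum and 0.703 and 0.466 in cerebellum. Bcl11b, a transcription factor required for projection neuron identity, had 70.3 and 62.0 RPKM in striatum and 0.599 and 0.149 in cerebellum (-5.63 ± 0.21). The G protein subunit Gng7, the phosphatase Ptpn5, the small GTPase Rasd2 and Arpp21 were lower by differences of -5.08, -4.88, -4.88 and -4.80. Striatal signalling genes that the cerebellum also had were Gnal, the olfactory G protein, with 64.4 and 53.9 RPKM in cerebellum against 222 and 282 in striatum, and Itpka, an inositol phosphate kinase, with 10.4 and 17.4 against 20.1 and 36.7. Gnal was called lower (-2.07 ± 0.19) and Itpka did not pass (adjusted p = 0.103). Of the 19 genes, 18 were higher in cerebellum replicate 1 than in replicate 2, and within replicate 1 and within replicate 2 the medians were -3.73 and -4.35.

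The direct and indirect pathways were both lower in cerebellum. Direct pathway genes had 7 of 8 lower and 1 higher (median -3.25). The dopamine receptor Drd1a, the table's symbol for Drd1, had 96.8 and 88.9 RPKM in striatum and 0.0989 and 0.0715 in cerebellum (-6.43 ± 0.14, adjusted p = 0.000113), and Tac1, the substance P precursor, 158 and 153 RPKM in striatum and 1.11 and 0.276 in cerebellum (-6.58 ± 0.26). The dynorphin precursor Pdyn had 26.6 and 16.2 RPKM in striatum and 0.0336 and 0.0466 in cerebellum, the muscarinic receptor Chrm4 10.0 and 8.24 RPKM in striatum and 0.357 and 0.0789 in cerebellum, and the transcription factor Isl1 5.72 and 6.00 and 0.00489 and 0. Indirect pathway genes had 5 of 8 lower and 1 higher (median -2.68). Drd2 had 124 and 185 RPKM in striatum and 1.51 and 0.205 in cerebellum (-6.45 ± 0.39), the adenosine receptor Adora2a 67.6 and 52.3 RPKM in striatum and 0.0612 and 0.146 in cerebellum, and the orphan receptor Gpr6 20.3 and 21.8 and 0.0218 and 0.00948. Penk, the enkephalin precursor, was the gene of this pathway with the highest cerebellar level, 69.8 and 35.4 RPKM against 581 and 507 in striatum, a difference of -3.42 ± 0.33. The members on the other side were Ebf1, a transcription factor of developing direct pathway neurons, at 18.7 and 18.8 RPKM in cerebellum and 5.23 and 5.12 in striatum (1.68 ± 0.14), and the plexin domain gene Plxdc1, at 4.45 and 5.00 RPKM in cerebellum and 1.51 and 1.23 in striatum (1.27 ± 0.16). The indirect list had 2 higher calls without cerebellum replicate 1.

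Dopamine signalling as a whole had 11 of 15 genes lower and none higher (median -1.10). Beside both receptors, the cyclase Adcy5, which they act on in opposite directions, had 74.9 and 93.1 RPKM in striatum and 5.52 and 3.62 in cerebellum (-3.94 ± 0.22). The D3 receptor gene Drd3 was low everywhere, with 1.17 and 1.54 RPKM in striatum and 0.0533 and 0.139 in cerebellum, and passed with a difference of -1.10 ± 0.16. Enzymes and transporters of dopamine itself, made by neurons whose bodies lie outside the striatum, differed little. The synthesis enzyme Th had 6.42 and 1.40 RPKM in cerebellum and 2.34 and 2.42 in striatum, with regions that overlapped, the vesicular transporter Slc18a2 2.03 and 2.30 RPKM in cerebellum and 2.57 and 2.92 in striatum, and the degrading enzyme Maob 6.88 and 4.35 and 8.21 and 5.46. None of these 3 passed.

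Striatal interneurons were seen through 7 of 9 genes called lower in cerebellum and 1 higher (median -2.64). The cholinergic genes Chat, which makes acetylcholine, and Slc5a7, which takes up choline, had 5.35 and 5.25 and 9.22 and 8.15 RPKM in striatum and at most 0.0861 in cerebellum. The homeobox genes Lhx6 and Nkx2-1 of interneurons from the ventral forebrain had 8.03 and 10.8 and 3.41 and 3.81 RPKM in striatum against at most 0.0319 in cerebellum. Somatostatin, Sst, had 115 and 235 RPKM in striatum and 5.95 and 1.49 in cerebellum (-5.31 ± 0.56), and its striatal libraries differed from each other more than those of Npy (67.3 and 51.6 RPKM in striatum and 8.35 and 7.48 in cerebellum). Nos1, which makes nitric oxide in a striatal interneuron class and also in cerebellar neurons, was higher in cerebellum, at 18.6 and 16.1 RPKM in cerebellum and 7.87 and 6.78 in striatum (1.14 ± 0.16). Without cerebellum replicate 2 the list had 2 higher calls. Among 11 acetylcholine genes tested, of 17 in the table, 7 were lower and 1 higher (median -1.14). The muscarinic receptor Chrm1 had 13.5 and 12.6 RPKM in striatum and 0.179 and 0.0311 in cerebellum (-3.67 ± 0.16) and the nicotinic subunit Chrna7 was lower by a difference of -0.84 ± 0.16, a call lost without cerebellum replicate 2 (adjusted p = 0.0669) or striatum replicate 2 (0.0662). Chrnb2, a nicotinic subunit, was higher (0.60 ± 0.14) and lost its call without any of the 4 libraries, with adjusted p up to 0.182.

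Neuropeptides divided the regions strongly. Of 11 precursors 8 were lower in cerebellum and 2 higher (median -2.61), and of 17 peptide and cannabinoid receptors 12 were lower and 2 higher (median -1.38). Beside Tac1, Penk, Pdyn, Sst and Npy, the neurotensin gene Nts had 5.28 and 6.69 RPKM in striatum and 0.774 and 0.386 in cerebellum and the neurokinin gene Tac2 10.7 and 3.97 RPKM in striatum and 0.0855 and 0.445 in cerebellum. Adcyap1, the precursor of the peptide PACAP, was higher, at 3.01 and 2.22 RPKM in cerebellum and 0.377 and 0.312 in striatum (1.42 ± 0.18). Nppc, a natriuretic peptide, was also called higher, at 3.79 and 1.40 RPKM in cerebellum and 0.390 and 0.312 in striatum, but not without striatum replicate 1 (adjusted p = 0.0941) or 2 (0.114). All 3 classical opioid receptors were lower: Oprd1 had 6.53 and 11.8 RPKM in striatum and 0.371 and 0.309 in cerebellum, Oprk1 6.01 and 5.96 RPKM in striatum and 0.283 and 0.152 in cerebellum, and Oprm1 2.73 and 2.51 and 0.361 and 0.216. The substance P receptor Tacr1 was lower by a difference of -2.80 ± 0.16. Crhr1, the corticotropin releasing hormone receptor, went the other way, with 6.19 and 5.67 RPKM in cerebellum and 1.51 and 0.813 in striatum (1.70 ± 0.21). Cnr1, the cannabinoid receptor that both regions use presynaptically, was abundant in each, at 109 and 90.4 RPKM in cerebellum and 76.6 and 74.3 in striatum, and did not pass (0.39 ± 0.16, adjusted p = 0.129).

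Transcription factors that pattern the brain separated the regions in the direction of their names in all but 2 of the cases tested. Of 33 cerebellar and hindbrain factors listed 16 were tested, and of 26 forebrain factors listed 19 were. A factor could pass the filter through the region where it was high alone, which tilts the directions among those tested. All 16 cerebellar and hindbrain factors tested were higher in cerebellum (median 3.19). Of the 19 forebrain factors tested 17 were lower and 2 higher (median -2.42). The 2 were Ebf1 and Ikzf2 (1.68 and 0.71), and Ikzf2 lost its call without any 1 of the 4 libraries. Dlx5 and Dlx6, neighbouring homeobox genes of forebrain inhibitory neurons, had 21.2 and 30.6 and 7.39 and 5.68 RPKM in striatum and at most 0.0236 in cerebellum. Meis2 and the forkhead gene Foxp1 had 59.2 and 67.3 and 61.8 and 66.5 RPKM in striatum and 1.65 and 0.489 and 4.69 and 3.52 in cerebellum. On the cerebellar side, Zic5 had 31.0 and 38.4 RPKM in cerebellum and 0.672 and 0.619 in striatum (4.43 ± 0.17), Zic4 was higher by 2.40 ± 0.21 and Tfap2a by 3.03 ± 0.32.

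Genes of cortical and hippocampal neurons, which a striatal dissection could carry, were 12 in the table. Their summed levels were 63.4 and 60.2 RPKM in striatum and 104 and 92.9 in cerebellum. Of the cerebellar sums 59.9 and 44.6 RPKM were Neurod2, a factor also of granule neurons, against 1.24 and 1.18 in striatum. The sums therefore do not rank the regions by their cortical RNA. The highest level in striatum among those lower in cerebellum was that of 6330527O06Rik, with 16.9 and 17.8 RPKM in striatum and 0.383 and 0.178 in cerebellum (-3.85 ± 0.16). Tbr1, a factor of deep cortical layers, had 1.81 and 1.51 RPKM in striatum and 0.300 and 0.230 in cerebellum and Neurod6 3.20 and 3.11 RPKM in striatum and 4.62 and 2.60 in cerebellum. Of 9 such genes tested, 5 were lower in cerebellum and 3 higher (median -0.74). Neurod2, a factor of cortical and also of granule neurons, was among the higher ones, at 59.9 and 44.6 RPKM in cerebellum and 1.24 and 1.18 in striatum (4.57 ± 0.19). Without striatum replicate 2, 1 of the 3 higher calls was left. Among 16 genes listed as pan-neuronal 5 were lower, 3 higher and 8 not called (median -0.30). The called share was 50% beside the 29.1% of all genes tested. The list holds Nrgn, described above as a protein of forebrain dendrites, so not all its members are general to neurons. Syp of synaptic vesicles had 58.0 and 66.3 RPKM in cerebellum and 59.4 and 67.0 in striatum and Rbfox3, the NeuN antigen, 71.9 and 77.2 RPKM in cerebellum and 47.5 and 63.6 in striatum, neither of which passed. Among the 5 lower ones were the kinase Camk2a, at 170.2 and 231 RPKM in striatum and 17.9 and 17.7 in cerebellum (-3.41 ± 0.19), and Nrgn, given above (-6.12 ± 0.90). Of the 5 lower calls 3 were left without striatum replicate 2. The microtubule regulator Stmn2 was higher, at 305 and 400.3 RPKM in cerebellum and 77.0 and 85.8 in striatum (2.09 ± 0.20). Snap25 was called higher (1.15 ± 0.28), but lost its call without any 1 of the 4 libraries (adjusted p = 0.0558 to 0.269).

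Most families of receptors and channels did not move as a whole: they exchanged members. GABA-A receptors are pentamers whose subunits set where and how they act, and of 13 subunits tested 3 were higher and 6 lower in cerebellum. Gabra6, given above, led the cerebellar side. The striatal side had Gabra4, at 56.0 and 54.8 RPKM in striatum and 5.54 and 7.73 in cerebellum (-2.90 ± 0.18), Gabra2, at 17.7 and 16.8 RPKM in striatum and 2.97 and 3.23 in cerebellum, and Gabrg3, at 10.4 and 14.9 and 0.516 and 0.359. Summed over all 15 subunits in the table, the levels were 533 and 544 RPKM in cerebellum and 336 and 354 in striatum. Gabra6 alone made 245 and 244 RPKM of the cerebellar sums, so their order does not hold for the family as a whole. Gabrb2 was called higher (0.72 ± 0.15) and lost its call without any of the 4 libraries, with adjusted p up to 0.135.

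Ionotropic and metabotropic glutamate receptors had 7 of 23 members higher and 8 lower (median -0.48). Grm5, a metabotropic receptor that raises calcium, had 40.8 and 38.3 RPKM in striatum and 2.01 and 0.966 in cerebellum (-4.06 ± 0.23). Among NMDA receptor subunits, Grin2b had 24.7 and 26.7 RPKM in striatum and 1.80 and 1.26 in cerebellum (-3.41 ± 0.17) and Grin2c was higher by 1.72 ± 0.21. Among AMPA receptor subunits, Gria4 was higher and Gria1 and Gria2 lower, the latter at 127 and 152 RPKM in striatum and 40.5 and 64.5 in cerebellum (-1.43 ± 0.25). The calls of Gria1 and Gria2 were lost without striatum replicate 2 (adjusted p = 0.0627 and 0.0583), and that of Gria1 also without striatum replicate 1 (0.0734). Of the 8 lower calls 5 were left without striatum replicate 2. Grm4, a presynaptic receptor of parallel fibres, had 38.2 and 42.9 RPKM in cerebellum and 8.48 and 12.8 in striatum (1.86 ± 0.22).

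Voltage-gated potassium channel genes divided 8 higher and 11 lower among 22 (median -0.70). On the cerebellar side the fast channel Kcnc4 had 14.0 and 8.38 RPKM in cerebellum and 4.21 and 1.99 in striatum (1.59 ± 0.35), a call lost without cerebellum replicate 1 (adjusted p = 0.0763) or striatum replicate 2 (0.0794), and its relative Kcnc2 was lower (-1.79 ± 0.37). The striatal side had Kcnip2, an accessory subunit of A-type channels, at 82.3 and 89.6 RPKM in striatum and 1.05 and 0.459 in cerebellum (-5.65 ± 0.20), Kcna4 at 25.3 and 26.6 RPKM in striatum and 0.882 and 0.737 in cerebellum, and the M-current genes Kcnq5 and Kcnq3, lower by differences of -3.75 ± 0.16 and -2.62 ± 0.23. Kcnc2 lost its call without striatum replicate 1 (adjusted p = 0.0723). Of the 8 higher calls 5 were left without cerebellum replicate 1 or striatum replicate 2. Sodium and calcium channel genes had 5 higher and 9 lower of 21 (median -0.12). Scn4b and Scn3b, accessory subunits of sodium channels, had 95.4 and 83.7 and 24.6 and 27.5 RPKM in striatum and 8.03 and 5.89 and 0.866 and 0.579 in cerebellum. The pore-forming Scn8a had 31.1 and 32.5 RPKM in cerebellum and 29.9 and 34.3 in striatum, with overlapping regions. Of the 5 higher calls 2 or 3 were left without any 1 library.

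**Figure D4:**
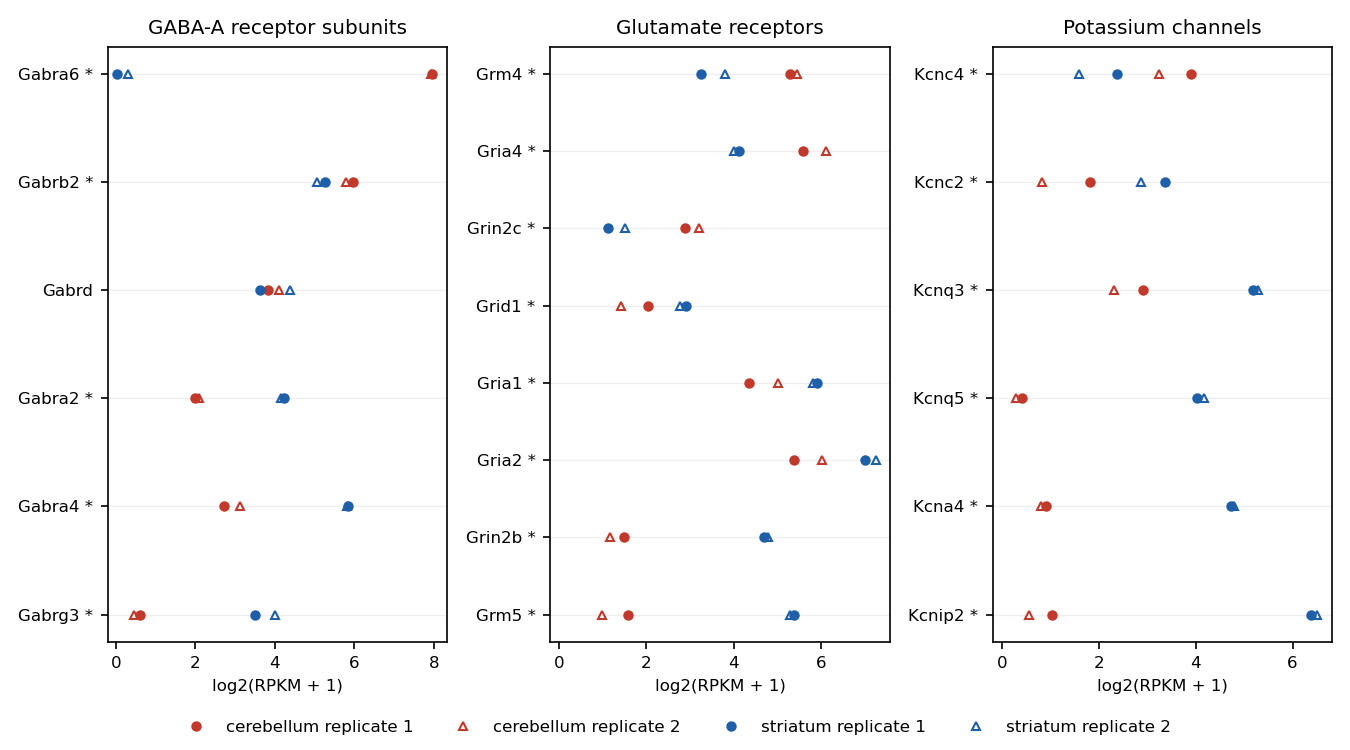
The x axis of each panel is log2(RPKM + 1) and each row is a gene, with circles for replicate 1, triangles for replicate 2, red for cerebellum and blue for striatum, and an asterisk where the gene was called. Only members described in the text are shown, and in each panel the rows run from a gene higher in cerebellum (Gabra6, Grm4, Kcnc4) to one lower in cerebellum (Gabrg3, Grm5, Kcnip2).

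Cyclic nucleotide signalling differed by isoform. Of 16 phosphodiesterases tested, 8 were lower in cerebellum and 3 higher (median -0.76), and of 10 cyclase genes 5 were lower and 2 higher (median -0.64). Beside Pde10a and Pde1b, Pde2a had 88.0 and 96.9 RPKM in striatum and 5.09 and 4.12 in cerebellum and Pde7b 81.8 and 72.2 RPKM in striatum and 3.80 and 3.24 in cerebellum. Without cerebellum replicate 2 the higher phosphodiesterase calls rose from 3 to 5, and without cerebellum replicate 1 or striatum replicate 2 the higher cyclase calls fell from 2 to 1. Pde5a, which degrades cyclic GMP, was the reverse, at 19.6 and 21.7 RPKM in cerebellum and 0.459 and 0.331 in striatum (3.95 ± 0.16). Adcy1, a calcium-stimulated adenylyl cyclase, had 142 and 176 RPKM in cerebellum and 18.5 and 23.0 in striatum (2.88 ± 0.19), whereas Adcy5 was at 74.9 and 93.1 RPKM in striatum and 5.52 and 3.62 in cerebellum. The guanylyl cyclase subunits Gucy1a3 and Gucy1b3 were lower by differences of -2.20 ± 0.13 and -1.60 ± 0.16. Among 21 RGS and G protein genes 10 were lower and 3 higher (median -0.68). Rgs4 had 349 and 356 RPKM in striatum and 5.98 and 5.75 in cerebellum (-5.69 ± 0.13), and both regions' replicates were close. Gng13 and Rgs8 were higher, Gng13 at 44.5 and 35.6 RPKM in cerebellum and 0.140 and 0.361 in striatum and Rgs8 at 266 and 342 RPKM in cerebellum and 55.6 and 66.5 in striatum.

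The cerebellin system, in which secreted Cbln1 bridges the synapse from parallel fibre to Purkinje cell, had 4 of 11 genes higher and 1 lower (median 0.20). Cbln3 and Cbln1, given with the granule cell genes, were among the higher ones. Nrxn3 had 41.2 and 38.7 RPKM in cerebellum and 35.3 and 35.2 in striatum and did not pass (0.17 ± 0.13, adjusted p = 0.384). Grid1, a postsynaptic partner of cerebellins, was lower (-1.13 ± 0.24), but not without cerebellum replicate 2 (adjusted p = 0.0612) or either striatal library (0.0898 and 0.0723).

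Retinoic acid genes had 3 of 13 higher and 5 lower (median -0.51). The nuclear receptors Rarb and Rxrg of striatal neurons had 38.5 and 42.6 and 29.7 and 35.3 RPKM in striatum and 3.35 and 1.81 and 0.253 and 0.0293 in cerebellum. The binding protein Crabp1 had 10.3 and 7.43 RPKM in striatum and 0.0483 and 0 in cerebellum (-3.25 ± 0.20). The synthesis enzymes Aldh1a1 and Aldh1a2 were higher in cerebellum, by 2.05 ± 0.25 and 1.75 ± 0.20. In Hedgehog signalling, by which Purkinje cells drive granule cell precursors in development, 4 of 9 genes were higher and 2 lower (median 0.48). The co-receptors Boc and Gas1 had 7.66 and 7.01 and 3.06 and 3.45 RPKM in cerebellum and 0.615 and 0.491 and 0.779 and 0.629 in striatum. The ligand Shh had 1.34 and 1.86 RPKM in cerebellum and 1.19 and 1.19 in striatum and did not pass (0.24 ± 0.17, adjusted p = 0.354). Cdon and Ptch1 were called higher (0.91 ± 0.18 and 0.83 ± 0.22) and both lost their calls without cerebellum replicate 2 (adjusted p = 0.0756 and 0.113), striatum replicate 1 (0.0895 and 0.138) or striatum replicate 2 (0.0585 and 0.130).

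Genes behind movement disorders were compared because ataxias involve the cerebellum and choreas and dystonias the striatum. Of 26 hereditary ataxia genes tested, 14 were higher in cerebellum and 2 lower (median 0.64). Several are Purkinje cell genes described above, such as Car8, Cacna1a and Itpr1, with differences of 7.87, 1.43 and 1.18. Ppp2r2b, a phosphatase subunit, was lower, at 25.5 and 30.1 RPKM in striatum and 11.4 and 12.2 in cerebellum (-1.17 ± 0.15). Atxn10 had 66.3 and 71.1 RPKM in cerebellum and 74.0 and 73.0 in striatum and Afg3l2, a mitochondrial protease gene, 21.1 and 27.7 RPKM in cerebellum and 20.7 and 29.5 in striatum, and neither passed. The 14 higher calls fell to 8 without cerebellum replicate 2 or striatum replicate 2 and to 9 without striatum replicate 1. Of 15 dystonia and chorea genes 5 were lower and 1 higher (median -0.35), a called share of 40% beside the 29.1% of all genes tested. Hpca, the calcium sensor hippocalcin, had 543 and 710.2 RPKM in striatum and 31.9 and 16.8 in cerebellum (-4.68 ± 0.33), and Adcy5, Pde10a and Gnal, given above, were also lower. Htt, huntingtin, had 10.1 and 9.44 RPKM in cerebellum and 9.05 and 7.75 in striatum and was not called. The single higher call was lost without cerebellum replicate 1 or either striatal library.

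Oligodendrocyte genes were lower in cerebellum for 15 of 16 tested, with a median of -1.20, and all 16 were lower in cerebellum within replicate 1 and within replicate 2. Among the myelin protein genes, Mobp had 107 and 96.7 RPKM in striatum and 40.6 and 30.7 in cerebellum (-1.50 ± 0.18, adjusted p = 0.00366) and Mal 169 and 194 RPKM in striatum and 45.8 and 60.9 in cerebellum (-1.76 ± 0.19). Mbp, myelin basic protein, had 172 and 110.3 RPKM in striatum and 63.6 and 40.7 in cerebellum. The regions did not overlap in these 3, and in Mbp both replicate 1 libraries were above the replicate 2 library of their region. Mbp lost its call without cerebellum replicate 2 (adjusted p = 0.0743) or striatum replicate 1 (0.0796). The transcription factors Sox10 and Olig1 of the same lineage were lower by differences of -1.29 ± 0.21 and -1.36 ± 0.20. Trf, transferrin, had 4.11 and 3.06 RPKM in striatum and 2.41 and 2.35 in cerebellum and did not pass. The count fell to 10 without cerebellum replicate 2 and to 9 without striatum replicate 1. Of 6 precursor cell genes tested 3 were lower and none higher (median -0.70), among them Pdgfra, at 4.08 and 4.25 RPKM in striatum and 1.86 and 2.16 in cerebellum, and Gpr17, at 3.11 and 5.48 RPKM in striatum and 0.634 and 1.58 in cerebellum. Pdgfra lost its call without any of the 4 libraries (adjusted p = 0.0521 to 0.0945) and Gpr17 without cerebellum replicate 1 (0.0954) or striatum replicate 2 (0.107).

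Astrocyte genes were higher in cerebellum for 6 of 15 and lower for 1 (median 0.51). The water channel Aqp4 had 33.1 and 47.8 RPKM in cerebellum and 9.87 and 16.9 in striatum (1.55 ± 0.30), the glycolytic enzyme Aldoc 356 and 244 RPKM in cerebellum and 119.5 and 89.1 in striatum, and Gpr37l1 69.2 and 48.4 and 24.8 and 18.3. Against them, Slc1a2, the main glutamate transporter of forebrain astrocytes, had 187 and 181 RPKM in striatum and 62.3 and 60.8 in cerebellum (-1.56 ± 0.14). Gfap, the intermediate filament, differed more between replicates than between regions, with 17.2 and 4.73 RPKM in cerebellum and 40.8 and 5.37 in striatum. Aqp4 lost its call without cerebellum replicate 2 (adjusted p = 0.0582) and Aldoc without striatum replicate 2 (0.0642). The count of higher calls was 2 without cerebellum replicate 2, 4 without striatum replicate 1 and 3 without striatum replicate 2.

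The microglia list leaned to striatum: 11 of 20 tested were called lower in cerebellum, none higher, and the median was -1.08. P2ry12, the nucleotide receptor of homeostatic microglia, had 11.8 and 9.60 RPKM in striatum and 2.99 and 2.54 in cerebellum (-1.63 ± 0.17, adjusted p = 0.00225), and Siglech 3.42 and 2.78 RPKM in striatum and 0.979 and 0.855 in cerebellum (-1.09 ± 0.17). Cx3cr1 was lower by a difference of -1.33 ± 0.27 and P2ry13 by -1.13 ± 0.19. Both replicates of striatum were above both of cerebellum for 15 of the 20 genes, P2ry12 and Cx3cr1 among them, where 66.2% of all genes tested did not overlap. The complement gene C1qb, at 30.8 and 14.4 RPKM in striatum and 14.5 and 4.85 in cerebellum, and the protease Ctss, at 39.3 and 18.8 RPKM in striatum and 20.6 and 7.40 in cerebellum, overlapped and did not pass (adjusted p = 0.162 and 0.198). With the replicate number as a block 19 of the 20 were called lower, C1qb and Ctss among them (limma adjusted p = 0.00109 and 0.00145). All 20 genes were higher in replicate 1 than in replicate 2 in both regions, and all 20 were lower in cerebellum within each replicate number, with medians of -1.11 and -1.12. The summed level of the 22 genes in the table was 91.6 and 39.6 RPKM in cerebellum and 215 and 115 in striatum. The 11 calls fell to 4 without cerebellum replicate 2 and to 3 without striatum replicate 1, and Cx3cr1 lost its call in both (adjusted p = 0.0728 and 0.0547). Whether a capture removed microglial transcripts from these libraries, and in equal shares from both regions, was not tested.

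**Figure D5:**
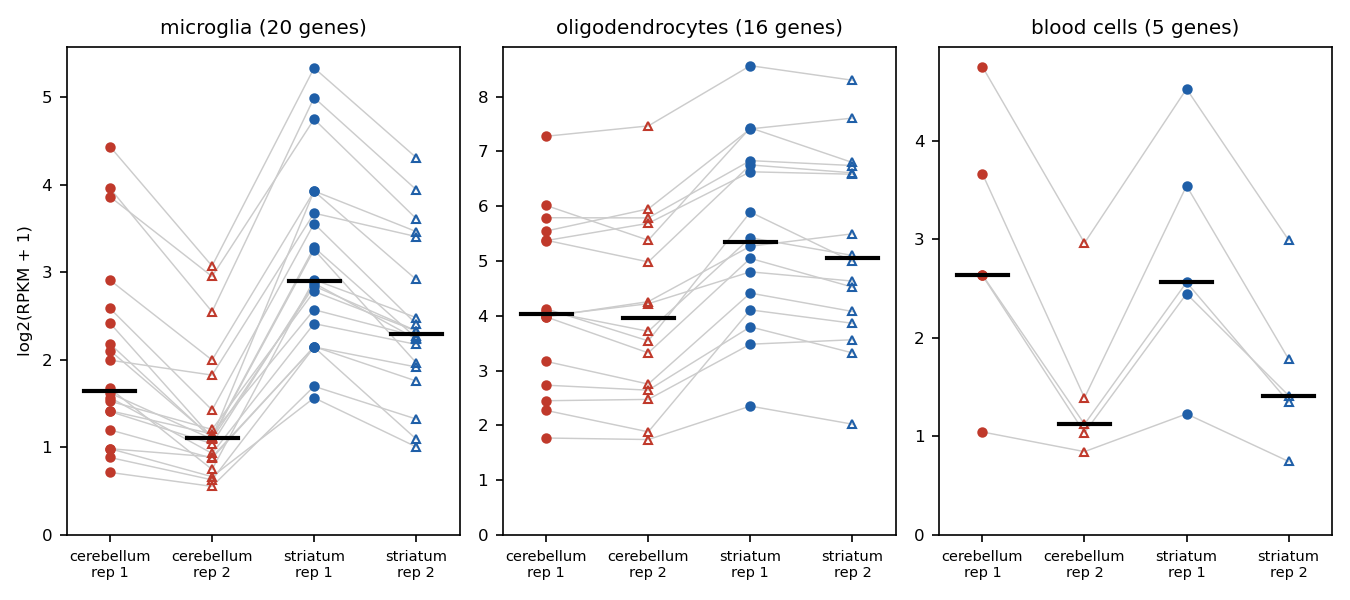
Each panel plots log2(RPKM + 1) of the genes tested of 1 list in the 4 libraries on the x axis, with grey lines joining the values of a gene and black bars at the median. The 20 microglia genes are lower in cerebellum than in striatum within each replicate number and lower in replicate 2 than in replicate 1 of each region, the 16 oligodendrocyte genes follow region, and the 5 blood genes follow replicate number.

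Clearance receptors and opsonins, which mark and take up dying cells, had 2 of 21 genes higher and 5 lower in cerebellum (median -0.49), a called share of 33.3% that is near the 29.1% of all genes tested. Mfge8, the bridging opsonin, had 8.84 and 14.0 RPKM in striatum and 3.64 and 4.44 in cerebellum (-1.28 ± 0.24) and the scavenger receptor Scarb1 3.56 and 3.39 RPKM in striatum and 0.594 and 0.377 in cerebellum (-1.59 ± 0.16). The TAM receptor Tyro3 was lower by a difference of -0.79 ± 0.15, while Sirpa, at 31.7 and 38.7 RPKM in cerebellum and 32.9 and 35.5 in striatum, and the don't-eat-me signal Cd47, at 61.0 and 73.4 RPKM in cerebellum and 79.6 and 92.7 in striatum, did not pass. Colec12, a collectin scavenger receptor, was higher, at 2.50 and 2.48 RPKM in cerebellum and 0.784 and 0.742 in striatum (0.99 ± 0.15). Without cerebellum replicate 2, or without either striatal library, 2 of the 5 lower calls were left, and Mfge8 lost its call without cerebellum replicate 1 (adjusted p = 0.0571) or striatum replicate 2 (0.0592). Tyro3 lost its call without cerebellum replicate 2 (0.0705) or striatum replicate 1 or 2 (0.0751 and 0.0961).

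Polycomb repressive complex 2, which places the repressive histone mark H3K27me3, was expressed in both tissues. The series deletes its subunit Eed in microglia of other groups, and the mice here also carried 1 floxed Eed allele. Whether that allele was recombined here was not tested. Eed had 9.12 and 13.0 RPKM in cerebellum and 6.32 and 8.16 in striatum, with regions that did not overlap, and did not pass (0.54 ± 0.22, adjusted p = 0.130). Of 12 genes of the complex and of the opposing demethylases 3 were higher and none lower (median 0.45), a called share of 25.0% beside the 29.1% of all genes tested. These were the cofactor Jarid2 at 14.1 and 15.4 RPKM in cerebellum and 7.08 and 7.93 in striatum, the core subunit Suz12 at 30.2 and 33.5 RPKM in cerebellum and 17.9 and 17.7 in striatum, and the catalytic subunit Ezh2 at 6.55 and 6.38 and 3.40 and 3.85. Their differences were 0.89 ± 0.15, 0.80 ± 0.14 and 0.69 ± 0.15 (adjusted p = 0.00911, 0.0104 and 0.0225). Ezh2 lost its call without any of the 4 libraries (adjusted p up to 0.136), Suz12 without cerebellum replicate 2 (0.0535) or striatum replicate 1 or 2 (0.0597 and 0.0672), and Jarid2 without cerebellum replicate 2 (0.0508) or striatum replicate 1 (0.0615).

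Cells of the ventricles, vessels and coverings of the brain were also compared, since dissections can differ in what they include. Choroid plexus genes were higher in cerebellum for 9 of 10 tested (median 1.36). Ttr, transthyretin, the main secreted product of choroid plexus, had 938 and 1014 RPKM in cerebellum and 27.3 and 13.2 in striatum (5.60 ± 0.33, adjusted p = 0.000463), and the homeobox gene Otx2 8.58 and 12.0 RPKM in cerebellum and 0.607 and 0.466 in striatum, though Otx2 is known from cerebellar granule cells too. Kl, the hormone co-receptor Klotho, and the channel Kcnj13 were higher by 1.80 ± 0.20 and 1.93 ± 0.18. In striatum all 10 genes were higher in replicate 1 than in replicate 2, as for Ttr. Among 8 mural cell and fibroblast genes 6 were higher (median 1.04). The matrix protein Dcn had 19.2 and 9.11 RPKM in cerebellum and 2.31 and 1.08 in striatum and the growth factor Igf2 24.5 and 17.9 RPKM in cerebellum and 3.92 and 2.50 in striatum, while the pericyte gene Rgs5 had 8.76 and 13.6 RPKM in cerebellum and 11.7 and 14.7 in striatum and overlapped. Ependymal genes had 1 of 5 called, Rsph1, lower by a difference of -0.60 ± 0.16, a call lost without any of the 4 libraries (adjusted p up to 0.213).

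Vessel, blood and border macrophage genes were scarce. In limma's test none of 4 endothelial genes and none of 5 blood genes was called, none of them had an unadjusted p under 0.05, and voom called none. The defining endothelial genes Cldn5, Pecam1, Cdh5, Flt1 and Kdr were each under 1 RPKM in all 4 libraries and were not tested. The border macrophage gene Cd163 was the only 1 of 12 to be tested, at 2.86 and 2.94 RPKM in striatum and 0.349 and 0.352 in cerebellum (-1.53 ± 0.15). Haemoglobin genes varied more with the replicate number than with the region: all 5 blood genes were higher in replicate 1 than in replicate 2 in both regions, and their summed level with the other blood genes was 50.7 and 14.4 RPKM in cerebellum and 44.6 and 15.0 in striatum.

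Immediate early genes, which neurons switch on within minutes of activity or handling, were lower in cerebellum for 7 of 14 genes in a list that also holds heat shock genes, with 1 higher (median -1.11). Egr1 had 84.8 and 80.3 RPKM in striatum and 20.5 and 14.0 in cerebellum (-2.22 ± 0.21, adjusted p = 0.00156) and Fosb 7.00 and 2.83 RPKM in striatum and 0.454 and 0.0807 in cerebellum (-2.14 ± 0.38). Fos itself overlapped, at 3.67 and 0.722 RPKM in cerebellum and 2.42 and 0.218 in striatum, and was higher in replicate 1 of both regions. Ier2 was the gene called higher, at 1.87 and 1.52 RPKM in cerebellum and 0.178 and 0.336 in striatum (1.10 ± 0.17). The heat shock genes Hsp90aa1 and Dnajb1 had 199 and 268 and 20.0 and 22.8 RPKM in cerebellum and 192 and 197 and 24.7 and 27.7 in striatum, and neither passed. Of the 7 lower calls 3 were left without cerebellum replicate 2.

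The remaining lists moved in part. Transmitter synthesis and transport had 3 of 16 higher and 6 lower (median -0.06), with the GABA-making enzyme Gad2 at 299 and 272 RPKM in striatum and 109 and 102 in cerebellum (-1.43 ± 0.16) and Gad1 at 58.1 and 51.2 RPKM in striatum and 44.9 and 42.5 in cerebellum, not called (adjusted p = 0.168). Without cerebellum replicate 2 there were 5 higher calls in place of 3. The vesicular transporter Slc17a8 had 2.92 and 3.95 RPKM in striatum and 0.00821 and 0.0142 in cerebellum. Neurofilament, axon and perineuronal net genes had 3 of 13 higher and 3 lower (median -0.22): the link protein Hapln4 had 36.3 and 37.5 RPKM in cerebellum and 12.5 and 11.5 in striatum (1.55 ± 0.14) and the proteoglycan Ncan 29.2 and 43.2 RPKM in striatum and 3.42 and 3.46 in cerebellum (-3.04 ± 0.21). Without striatum replicate 2, 1 of the 3 higher calls was left. Genes of neuroblasts and progenitors of the ventricle wall, where the adult striatum borders a germinal zone, had 5 of 7 lower and none higher (median -1.58), Dcx of migrating neuroblasts at 5.06 and 4.91 RPKM in striatum and 1.20 and 0.819 in cerebellum and Sox11 at 2.83 and 2.91 RPKM in striatum and 0.433 and 0.418 in cerebellum. The glycine receptor subunit Glra2 was lower (-1.44 ± 0.15) and Glrb overlapped. In the list of thalamic, midbrain and hindbrain neurons 1 of 4 genes was higher, Calb2, and 1 lower, Pmch, at 1.09 and 1.06 RPKM in striatum and 0.0517 and 0 in cerebellum. Without cerebellum replicate 2 there were 3 higher, and without cerebellum replicate 1 there were 2 lower, so that the median of 0.45 became 1.12 and -0.22. Xist, expressed from the inactive X chromosome of females, had 1.14 to 2.06 RPKM in all 4 libraries, and of 3 sex-linked genes tested none was called (1 had an unadjusted p under 0.05 in limma's test, and voom called none).

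Whether tissue RNA and the RNA captured by TRAP show the same regional difference was tested against the 4 TRAP control libraries of 9 months. These carry the same genotype (n = 2 per region and kind of RNA). The regional difference in tissue differed from that in TRAP RNA for 575 of 14186 genes (4.05%), with 244 (1.72%) higher and 331 (2.33%) lower in limma's test. Stk17b, a kinase of lymphoid and other cells, had 48.2 and 66.5 RPKM in cerebellar and 4.25 and 3.22 in striatal tissue RNA. In TRAP RNA it had 53.3 and 74.6 RPKM in cerebellar and 49.7 and 41.3 in striatal TRAP RNA, so the tissue regions were apart and the TRAP regions close (3.15 ± 0.35, adjusted p = 0.0160). H2-Aa, a class II antigen-presenting gene, was the reverse, with 1.50 and 0.440 RPKM in cerebellar and 1.04 and 0.0703 in striatal tissue RNA and 39.3 and 59.1 RPKM in cerebellar and 0.768 and 1.24 in striatal TRAP RNA (-4.27 ± 0.59, adjusted p = 0.0240). Of the 19 shared striatal projection neuron genes 9 were called lower in the tissue comparison than in TRAP RNA, against 2.33% of all genes. Neuronal genes differed between regions in TRAP RNA too, so the contrast is not one of tissue against microglia alone. The median difference in TRAP RNA was 2.81 for granule cell genes, 2.87 for Purkinje cell genes and -2.56 for shared striatal projection neuron genes. How much of the TRAP RNA came from microglia was not tested. Over all genes the difference of differences had a median of -0.09. With every library centred on its median, 653 genes were called and 63.2% of them were higher, against 42.4% without centring. No gene was called without any 1 of the 4 tissue libraries or without striatal TRAP replicate 1 (2297 to 3112 genes at an unadjusted p under 0.05), and 14 were called without striatal TRAP replicate 2. With the replicate number as a block within each kind of RNA no gene was called either (4116 at an unadjusted p under 0.05). Without cerebellar TRAP replicate 1 or 2, 1763 and 1490 were called.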

How the data were processed

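The authors' deposited table holds RPKM per gene and library. The submitters' processing notes name bcl2fastq, TopHat2 2.1.0, HTSeq 0.6.0, DESeq2 and the mm9 build, with no order of steps; strand use and gene lengths are not given in the sources used here. Per the labels' protocols, cDNA was made with the NuGEN Ovation V2 kit and sequenced as single reads of 75 cycles. Of 37991 genes, 181 without values were left out. All values of the 32861 genes above 0 were whole multiples of 1 read within 0.02 reads, which gave the read totals. Genes that reached 1 RPKM in 2 or more of the 4 libraries were tested on log2(RPKM + 1) with limma 3.58.1 in R 4.3.3 (empirical Bayes with an intensity trend, 2 residual degrees of freedom, Benjamini-Hochberg over all genes tested, called under 0.05, two-sided), and the tissue against TRAP difference on 8 libraries. The fit was tested on simulated data for this comparison (12954 genes). It called 3 of 100 genes changed by 1, 34 of 50 changed by 2, 44 of 50 changed by 4 and 2 of 12754 unchanged genes. Far fewer genes were changed there than were called in the data, which makes the adjusted p stricter. These shares therefore do not carry over to the data, where 1622 of the 3771 called genes differed by less than 1. Members and the 48 gene lists were chosen with earlier results of these data known. Named genes are the 15 largest called differences in each direction (8 for tissue against TRAP) among named genes that do not overlap and average at least 2 RPKM in the higher group, up to 10 called and 4 uncalled members of each list, and Eed, Ezh2, Suz12, Cx3cr1 and Xist; Cd3e, Fos, Gfap, Ikzf2, Il22, Syp and the untested endothelial genes were chosen after their values were seen. Of 37810 identifiers, 32908 matched the current gene table, and symbols are the deposited ones. Other pseudocounts, filters, scalings, spreads, a replicate block, voom on recovered reads and leaving out each library were tried, and counts per list under these settings were added after seeing the data. A few genes that the rule names are not reported here.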

Additional observations from a re-analysis of the deposited data

Results flagged for a closer look

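A difference between regions that is not the same in tissue RNA and in TRAP RNA was found for 575 of 14186 genes by a direct test of the difference (limma, cerebellum minus striatum in tissue minus the same in TRAP, n = 2 per region and kind of RNA). The 8 largest in each direction by the naming rule are given as values. Higher in the tissue comparison were Ebf3 (3.60), Stk17b (3.15), Maf (3.10), Cdr1 (3.09), Gcnt1 (2.96), Il16 (2.95), Inpp4b (2.87) and Sla (2.79). Maf, a transcription factor, had 6.48 and 7.52 RPKM in cerebellar and 1.58 and 1.15 in striatal tissue RNA, but 44.8 and 31.8 RPKM in cerebellar and 95.7 and 98.5 in striatal TRAP RNA, so that the regions were in the opposite order. Lower were H2-Aa (-4.27), H2-Eb1 (-3.90), Apln (-3.87), Cd163 (-3.58), Ccnjl (-3.48), Rxrg (-3.48), Vsig4 (-3.46) and Zfp960 (-3.44). Cd163, a scavenger receptor of border macrophages, was higher in striatum in tissue (-1.53) and higher in cerebellum in TRAP RNA (2.05). None of these 16, nor any other gene, kept its call without any 1 of the 4 tissue libraries, without striatal TRAP replicate 1 or with the replicate number as a block, while 3 kept it without striatal TRAP replicate 2. With 2 libraries per group, no group was large enough to look for a library apart from the others.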

How the results depend on the processing

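Of 293 named genes called, 209 kept the call under all 13 alternatives of the main test and 84 lost it in at least 1. The only reversal was Tcf7l2, not called at -0.01 but higher by 0.90 without cerebellum replicate 2 (limma adjusted p = 0.0447) and -0.91 without cerebellum replicate 1. The 3771 calls stayed within 1.5 times under a pseudocount of 0.1 RPKM, no filter, a filter of 5 RPKM, median centring, quantile normalization, no intensity trend and voom, except that with the filter of 5 RPKM 1321 genes were lower (fewer genes were tested). Leaving out 1 library gave 2171 to 2803 calls, 902 to 1189 higher and 1269 to 1614 lower. With the spread from 8 libraries 2365 were called, 1050 higher and 1315 lower. The replicate block, with replicate number as a term, gave 6071 calls, 2972 higher and 3099 lower, which include the 3771. Across genes, the deviations of replicate 1 from the mean of its region correlated between the regions with r = 0.585. With 2 libraries per region the deviations of replicate 2 only mirror these, and genes are not independent replicates. The replicate number goes with the IN and UB of the library names, which are not explained in the sources used here. The number itself was called for 205 genes. The tissue against TRAP count of 575 was 328 with a pseudocount of 0.1 and 0 with the replicate block (4116 at an unadjusted p under 0.05 in limma), and 0 to 1763 when 1 library was left out. The cause of these shifts was not tested. Precision is limited by 2 libraries per region and by reads (21.5 M or more per library); their parts were not compared.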

Other observations

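Genes that lie next to each other in the genome sometimes moved together. Protein-coding genes were placed in order by RefSeq's GRCm38.p6 annotation through their symbols, and 7681 adjacent pairs had both genes tested. In 470 pairs (6.12%) both were called in the same direction and in 225 (2.93%) in opposite directions. Of all genes tested 13.8% were called higher and 15.3% lower, so some unrelated pairs would also share a direction. Whether neighbours shared a direction more often than unrelated pairs was not tested. Pairs that were higher together in cerebellum included Zic5 and Zic2 (4.43 and 4.15), Zic1 and Zic4 (4.99 and 2.40) and En2 and Cnpy1 (3.35 and 4.84). Among pairs lower together were Dlx6 and Dlx5 (-2.90 and -4.70) and Gabrg3 and Gabra5 (-3.23 and -2.47). These pairs were chosen after their values were seen. Whether reads of overlapping neighbours were kept apart is not known, since strand use is not given in the sources used here.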
